A study of Mus musculus with 8 samples.

Results

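The genes described here are 10 proteasome genes that IFNγ, a cytokine of T cells and NK cells, either switches on or leaves in place. They were chosen by gene name from 20432 genes and loci present in both deposited tables (23998 in either table). The 5 induced genes are Psmb8, Psmb9, Psmb10, Psme1 and Psme2. The 5 genes set against them are Psmb5, Psmb6 and Psmb7, which encode the subunits that the induced ones replace, Psme3, an activator of the nuclear proteasome, and Pomp, an assembly factor. All 10 were measured in all 8 samples, and all passed the filter on low values.

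The study used RNA-seq to ask how loss of DENR changes the response of tumor cells to IFNγ. DENR is a protein that binds tRNA and helps ribosomes start translation again after a short upstream reading frame. The cells were MC38, a murine colon adenocarcinoma line, as wild-type control cells or as DENR KO cells. Each genotype was either left untreated or given IFNγ for 4 h at 20 ng/ml, which gave 4 groups of 2 samples. The study made stable DENR KO cells with Cas9 and sgRNA, and whether their 2 samples per treatment came from 2 sgRNAs or from 1 was not given in the sources used here. The study calls the samples independent without saying how they were separated, so the p-values below measure only the spread between these samples.

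The proteasome degrades proteins in a barrel of stacked rings. In most cells the inner β rings carry the catalytic subunits β1 (Psmb6), β2 (Psmb7) and β5 (Psmb5). In cells exposed to IFNγ, newly built barrels take in β1i (Psmb9), β2i (Psmb10) and β5i (Psmb8) in their place, which changes the peptides cut for presentation by MHC class I. PA28α (Psme1) and PA28β (Psme2) form a cap that opens the barrel, and POMP helps assemble both kinds of barrel. In bulk RNA a change in the number of cells that express a gene and a change in RNA per cell cannot be told apart.

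Reads assigned to genes numbered between 17369020 and 18403790 per sample. Levels are given as RPM, the reads of a gene scaled to 1000000 reads per sample. Denr mRNA was at 80.8 and 78.5 RPM in control cells with IFNγ and at 53.4 and 54.2 RPM in DENR KO cells. Without IFNγ it was at 80.2 and 72.5 RPM in control cells and at 52.2 and 50.6 RPM in DENR KO cells. The labels and the Denr values therefore pointed the same way, although the transcript was still present (log2 fold change −0.58, adjusted p = 8.17e-06 with IFNγ, and −0.56, adjusted p = 0.00011 without). Markers of the labelled tissue were nearly absent. The 5 epithelial markers of 7 that were in the tables (Krt8, Krt18, Krt19, Cdh1 and Vil1) summed to between 0.72 and 1.39 RPM in every sample, and Krt18 had no reads in the IFNγ samples. The 8 hematopoietic markers of 14 in the tables, for cells that hold immunoproteasomes without stimulation, summed to between 0.63 and 1.5 RPM, with no read of Ptprc in 6 of the 8 samples. The 5 stromal markers summed to between 370 and 412 RPM in control and between 294 and 311 RPM in DENR KO cells with IFNγ, and most of this was Dcn. The markers did not move together in DENR KO cells with IFNγ, where Dcn was called lower (log2 fold change −0.47), Pdgfrb was called higher (0.43) and Col1a1 was at −0.06 (adjusted p = 0.896). Untreated, that sum was 316 to 327 RPM in control and 261 to 285 RPM in DENR KO cells, and its part in the results was not tested.

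The genes lie in 2 short clusters and at scattered sites of GRCm38. Psmb9 (chr17:34181988-34187764, minus strand) and Psmb8 (chr17:34197721-34201454, plus strand) alternate with Tap1 and Tap2, the subunits of the transporter that moves peptides into the endoplasmic reticulum, and the 4 genes span 34.3 kb of the MHC region. The RefSeq start sites of Psmb9 (34187330) and Tap1 (34187556) lie 225 bases apart on opposite strands. The Psmb9 start site lies inside the span given above, which shares 212 bases with the span of Tap1. Psme1 (chr14:55578123-55581529, plus strand) and Psme2 (chr14:55587441-55591113, minus strand) lie within 13.0 kb of each other. Psmb10 is at chr8:105935735-105938444. The replaced subunits lie elsewhere, with Psmb5 at chr14:54614119-54618022, Psmb6 at chr11:70525367-70527858 and Psmb7 at chr2:38588036-38644087. Psme3 is at chr11:101316213-101323537 and Pomp at chr5:147860461-147876456.

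Promoter windows of 250 bases before and 50 after the RefSeq start site (GRCm38.p6) were found for 9 of the 10 genes, all but Psmb7. They were searched on both strands for 4 motifs, because interferon response elements and the sites of NFE2L1 are known from genes of these groups. A GAS motif (TTCNNNGAA, an element of IFNγ-responsive promoters) was in 8.3% of all 32851 promoter windows and in that of Psmb8 only among the 9. An ISRE motif (GAAANNGAAA, bound by IRF factors) was in 3.44% of all windows and, among the 9, in that of Psme1 on the opposite strand. An element of the kind bound by NFE2L1, which raises constitutive proteasome genes (TGACNNNGC), was in 12.4% of all windows and in those of Psmb5 and Psmb6. An NF-κB motif (GGGANNNTCC) was in 4.59% of all windows and in none of the 9. The matches are shown 5′ to 3′ on the strand of the gene, with the motif in capitals. They are descriptions of letters and not measured binding sites.
Psmb8 GAS, first base 97 before the start site, chr17:34198088-34198116, plus strand: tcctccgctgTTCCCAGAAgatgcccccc
Psme1 ISRE, at base 10 of the transcript, chr14:55578493-55578522, plus strand: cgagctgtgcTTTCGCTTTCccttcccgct
Psmb5 NFE2L1-type element, 47 before, chr14:54618024-54618052, minus strand: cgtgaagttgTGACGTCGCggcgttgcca
Psmb6 NFE2L1-type element, 9 before, chr11:70525338-70525366, plus strand: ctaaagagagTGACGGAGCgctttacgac
The RefSeq start used for Psmb8 lies 474 bases inside the gene as GENCODE annotates it, and that of Psme1 lies 371 bases inside. The Psmb8 and Psme1 stretches therefore overlap annotated exons of other transcripts of the same genes, whereas the Psmb5 and Psmb6 stretches lie outside any exon of their gene.

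The first comparison is IFNγ against untreated cells of the same genotype. The treatments were normalized separately, so levels are given as RPM and as log2 ratios of group means, with no test. The SD after ± combines the spread of the log2 sample values in both groups. It is printed for the induced genes in control cells. In control cells all 3 catalytic subunits of the immunoproteasome and Psme2 were more than 2-fold higher with IFNγ, Psme1 was just under 2-fold higher, and the replaced subunits were within 1.04-fold of their untreated level. The count of genes with a log2 ratio over 1 and no overlap between groups was 4 of the 10 in control cells, where 3.03% of 14002 genes met that rule, and 4 of the 10 in DENR KO cells, where 2.41% did. The 4 were Psmb8, Psmb9, Psmb10 and Psme2 in each genotype.

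Psmb9 had the largest ratio of the 10. It was at 9.81 and 10.4 RPM in untreated control cells and at 143 and 128 RPM with IFNγ, a log2 ratio of 3.74 ± 0.129 (13.4-fold). In DENR KO cells it was at 10.7 and 9.998 RPM untreated and at 109.5 and 104.7 RPM with IFNγ, a log2 ratio of 3.37 (10.3-fold). Both IFNγ-treated control samples were above both DENR KO samples, while the untreated groups overlapped. Over the 14002 genes, DENR KO and control samples did not overlap for 41.9% with IFNγ, 18.4% with DENR KO lower, and for 40.2% untreated. The control ratio was the 47th highest of 14002 genes.

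Psmb10 was at 37.3 and 31.4 RPM in untreated control cells and at 286 and 264 RPM with IFNγ (8.01-fold, log2 ratio 3.002 ± 0.195). In DENR KO cells it went from 37.1 and 34.5 RPM to 241 and 233 RPM (log2 ratio 2.73, 6.62-fold). The IFNγ groups again did not overlap, and the untreated groups did. Psmb8 started higher, at 51.4 and 42.7 RPM in control and 46.4 and 48.8 RPM in DENR KO cells, and reached 224 and 179 RPM in control and 207 and 168 RPM in DENR KO cells. Its log2 ratios were 2.10 ± 0.297 (4.29-fold) and 1.98 (3.95-fold), and the 2 samples within each IFNγ group lay farther apart than the group means.

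The PA28 genes responded less than the catalytic subunits. Psme2 was at 38.3 and 38.7 RPM in untreated control cells and at 118 and 122 RPM with IFNγ (log2 ratio 1.64 ± 0.034, 3.12-fold). In DENR KO cells it was at 35.4 and 39.3 RPM untreated and at 105.6 and 98.4 RPM with IFNγ (log2 ratio 1.45, 2.73-fold). Psme1, its partner in the same cap, was at 71.6 and 70.1 RPM in untreated control cells and at 139 and 134 RPM with IFNγ, a log2 ratio of 0.95 ± 0.046. That ratio was 1.01 when all 8 samples shared 1 set of size factors, which puts Psme1 past the 2-fold limit and makes 5 of the 10 in control cells. In DENR KO cells Psme1 was at 69.7 and 67.3 RPM untreated and at 128 and 122 RPM with IFNγ (log2 ratio 0.86).

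Among the 5 genes set against them, Pomp and Psme3 were higher with IFNγ, by less than 2-fold. Pomp was at 111.7 and 93.6 RPM in untreated control cells and at 144.2 and 146.3 RPM with IFNγ (log2 ratio 0.50), and in DENR KO cells at 107.5 and 100.7 RPM untreated and 136.6 and 131.8 RPM treated (log2 ratio 0.37). Psme3 was at 155.4 and 167.9 RPM in untreated control cells and at 187.2 and 195.3 RPM with IFNγ (log2 ratio 0.24). In DENR KO cells it was at 164.8 and 164.0 RPM and then at 192.4 and 188.5 RPM (log2 ratio 0.21). Neither gene had overlapping groups in either genotype, as was so for 55.0% of the 14002 genes in control and 52.7% in DENR KO cells, where 17.5% and 18.8% were higher with IFNγ.

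The replaced catalytic subunits hardly moved. Psmb5 had log2 ratios of −0.03 in control and −0.12 in DENR KO cells, with values between 72.4 and 91.0 RPM over all 8 samples. Psmb6 had log2 ratios of −0.03 and 0.01, with values between 110.5 and 129.2 RPM. Psmb7 had log2 ratios of 0.05 and 0.06, with values between 72.2 and 82.6 RPM. The treated and untreated groups overlapped for Psmb5 in control, for Psmb6 in both genotypes and for Psmb7 in DENR KO cells. For scale, the median log2 ratio of all 14002 genes was −0.07 in control and −0.05 in DENR KO cells. Psmb7 shares 6571 bases with Nek6 on the opposite strand, where exons of both genes touch and Nek6 had a mean of 597 reads. Whether reads were assigned by strand is not stated in the sources used here, so part of the Psmb7 count may belong to Nek6.

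**Figure D1:**
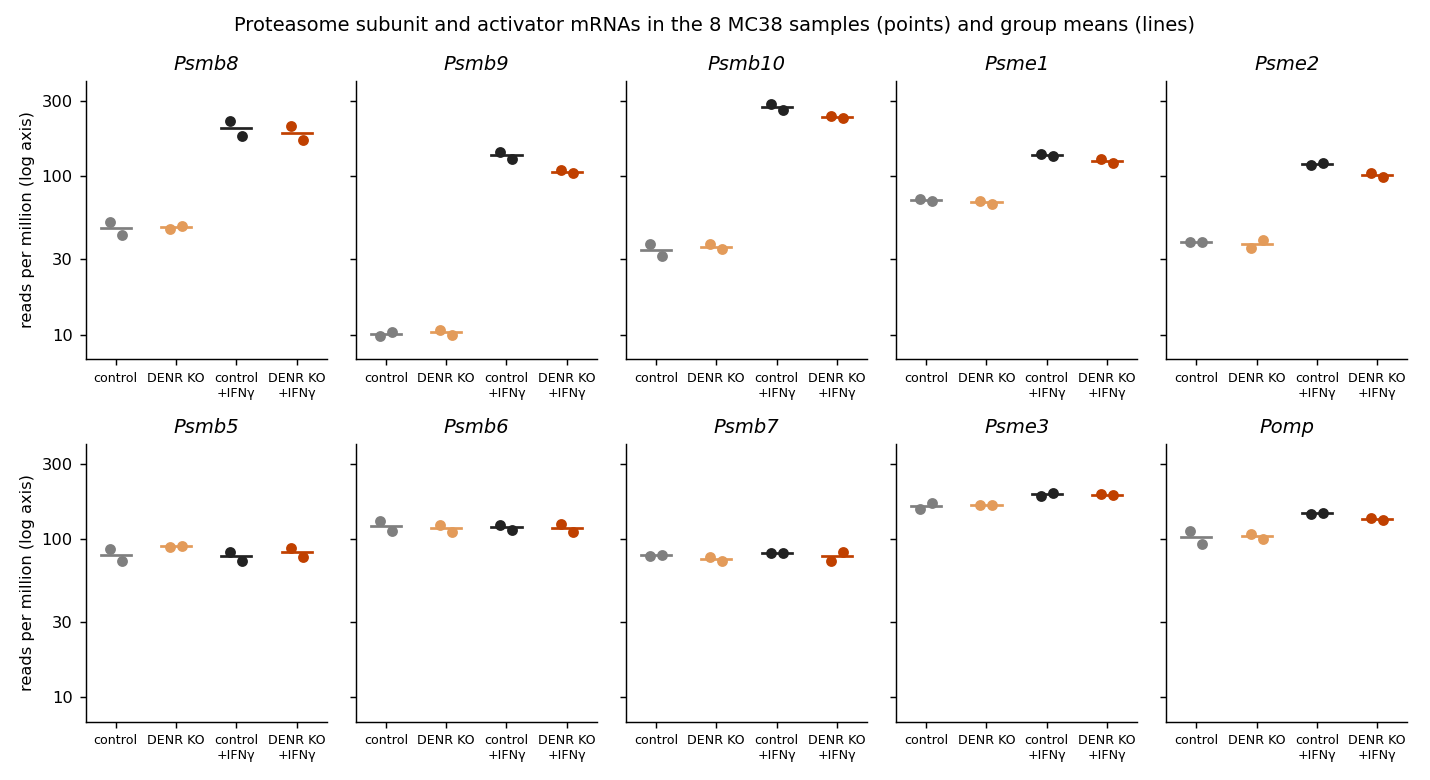
Level of each of the 10 genes in RPM (log axis) in the 4 groups; points are the 2 samples and lines are group means. The points of Psmb9 lie near 10 untreated and between 104.7 and 143 with IFNγ, while those of Psmb5, Psmb6 and Psmb7 lie at the same height in all groups.

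**Figure D2:**
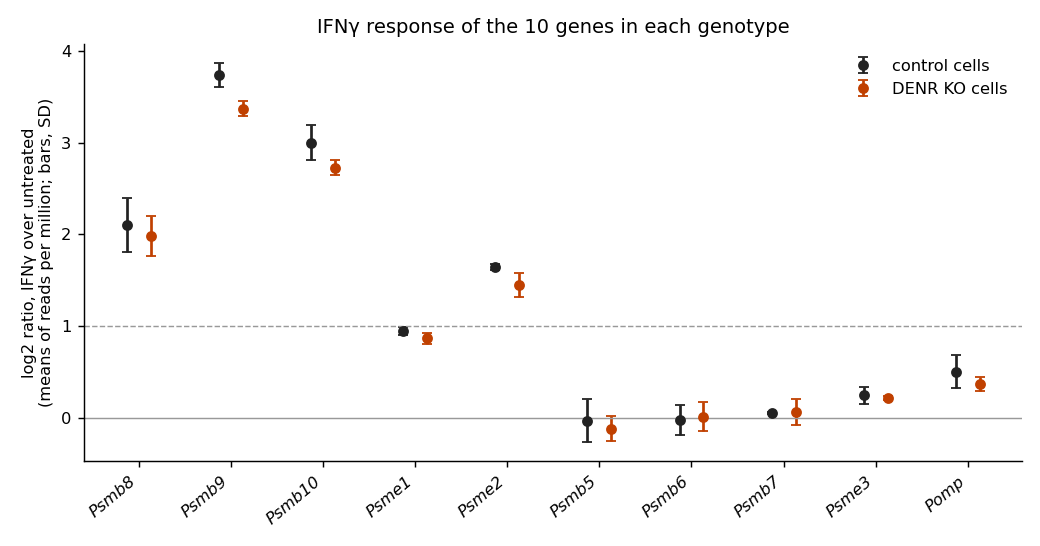
Log2 ratio of IFNγ-treated over untreated cells for each gene in control and in DENR KO cells, with the SD from the samples of both groups as bars and a dashed line at a log2 ratio of 1. Psmb8, Psmb9, Psmb10 and Psme2 lie above the line in both genotypes, and Psme1 lies just below it.

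The mean gain in DENR KO cells was smaller than in control cells for each of the 5 induced genes. Measured as the gain in RPM, it came to 77.2% of the control gain for Psmb9, 79.1% for Psme2, 83.5% for Psmb10, 85.6% for Psme1 and 90.8% for Psmb8. With 1 sample left out the Psmb8 share ran from 78.2% to 106%, and its direction turned without control sample 1 with IFNγ (106%) or DENR KO sample 2 with IFNγ (103%). The shares of the other 4 stayed between 72.8% and 90.2%. Pomp gained 70.8% of what it gained in control cells (58.4% to 89.9% with 1 sample left out). These shares are descriptions, and the difference itself was tested as an interaction below.

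The second comparison is DENR KO against control cells within the IFNγ-treated samples, on log2(normalized count + 1). Psmb9, Psmb10 and Psme2 fell in DENR KO cells, by between 14.5% and 21.5%, and none of the 10 rose. That is 3 of 10 lower, where 2.25% of 13928 genes were called lower and 1.8% higher (limma, adjusted p under 0.05). edgeR on the recovered reads also called 3 lower and DESeq2 called 2.

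Psmb9 changed most, with a log2 fold change of −0.35 (SE 0.067, 95% interval −0.49 to −0.21, adjusted p = 0.00212). It was called in each of the 9 other settings and without each of the 4 samples in turn, with adjusted p up to 0.0375. Its annotated span shares 212 bases with that of Tap1 on the opposite strand, where exons of both genes touch. Tap1 itself was at 693.6 and 672.2 RPM in control and at 482.3 and 485.5 RPM in DENR KO cells with IFNγ (log2 fold change −0.51, adjusted p = 2.71e-07), so a share of Tap1 reads in the Psmb9 count would move it the same way, and its size was not tested.

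Psmb10 had a log2 fold change of −0.23 (SE 0.058, 95% interval −0.35 to −0.11, adjusted p = 0.0246). The call was lost without DENR KO sample 2 (adjusted p = 0.173), without control sample 1 (adjusted p = 0.242) and when 1 fit was made over all 8 samples (adjusted p = 0.135). Psme2 had a log2 fold change of −0.25 (SE 0.066, 95% interval −0.39 to −0.11, adjusted p = 0.0288). Its call was lost without DENR KO sample 2 (adjusted p = 0.27), without control sample 2 (adjusted p = 0.171), in DESeq2 (adjusted p = 0.085) and in the fit over 8 samples (adjusted p = 0.0669). The copy Psme2b held between 5 and 32 reads per sample, and how reads common to both were assigned is not stated.

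Psme1, the partner of Psme2, had a log2 fold change of −0.14 (SE 0.063, adjusted p = 0.307) beside the 15.9% drop of Psme2. Psmb8 had a log2 fold change of −0.11 with a wide 95% interval, from −0.70 to 0.48 (adjusted p = 0.889). The Psmb8 drop was larger without control sample 2 or without DENR KO sample 1. Its sign turned without control sample 1 or without DENR KO sample 2. A drop of the size of Psmb9's therefore lies inside the Psmb8 interval, and the test does not separate the 2 genes.

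The genes set against the induced ones did not pass the test. With the replicate number as a block, Pomp did (adjusted p = 0.0393), as did Psme1 (adjusted p = 0.0181) and Psmb8 (adjusted p = 0.0372). Pomp had a log2 fold change of −0.13 (SE 0.061, adjusted p = 0.38). Psmb7 was at −0.08 (adjusted p = 0.73), Psmb6 at −0.02 (adjusted p = 0.949), Psme3 at −0.02 (adjusted p = 0.949) and Psmb5 at 0.08 (adjusted p = 0.774). The 95% intervals of these 5 genes together ran from −0.25 to 0.24, and for Pomp a drop as large as that of Psme2 lay at the edge of the interval.

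**Figure D3:**
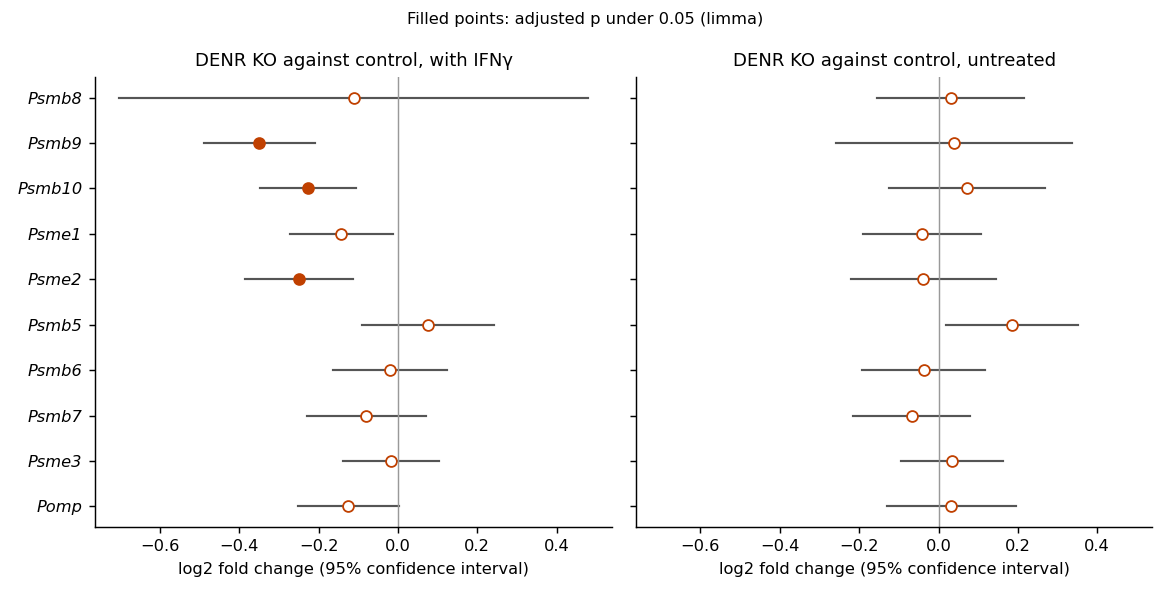
DENR KO over control cells as a log2 fold change for the 10 genes with IFNγ and untreated, with 95% intervals; filled points have an adjusted p under 0.05. With IFNγ the filled points are Psmb9 at −0.35, Psme2 at −0.25 and Psmb10 at −0.23, and no untreated point is filled.

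Without IFNγ the same comparison gave no call among the 10 genes. limma, edgeR and DESeq2 each called 0 of 10, where limma called 0.15% of 13998 genes lower and 0.429% higher. At an unadjusted p under 0.05 limma and edgeR had 1 of the 10, Psmb5, which was at 88.7 and 91.0 RPM in DENR KO and at 87.0 and 72.4 RPM in control cells (log2 fold change 0.19, SE 0.08, adjusted p = 0.472), and DESeq2 had 0. In limma 9.25% of all genes passed that threshold, so 1 of 10 is near the background. The 5 induced genes were between −0.04 (Psme1) and 0.07 (Psmb10) on the log2 scale. Psmb9 had the fewest reads of the 10 in untreated cells, and its 95% interval there, −0.26 to 0.34, was wider than with IFNγ.

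The difference between the DENR KO effect with IFNγ and the effect without it was tested over all 8 samples. limma, edgeR and DESeq2 each called 0 of the 10 genes, where limma called 0.429% of 13998 genes with a lower and 0.0214% with a higher effect under IFNγ. At an unadjusted p under 0.05 limma had 2 of the 10, edgeR 3 and DESeq2 2, where 5.74% of all genes passed that threshold in limma. Psmb9 had a difference of −0.39 (SE 0.124, adjusted p = 0.35) and Psmb10 one of −0.30 (SE 0.109, adjusted p = 0.539), which passed without control untreated sample 1 (adjusted p = 0.0359). Psme2 was at −0.21 (adjusted p = 0.885). So the drop of these 3 genes in IFNγ-treated DENR KO cells passed its test, but that it differed from the untreated effect did not.

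The mRNA of each induced gene can be set against that of the gene it replaces as a ratio within each sample. The ratio is in reads per kilobase of exon and does not depend on how samples were scaled. Subunit proteins and their assembly into barrels were not measured here. Fold differences between groups are the same without division by length, but the size of a ratio and its side of 1 are not. For β1, Psmb9 to Psmb6 was 0.0389 and 0.0476 in untreated control cells and 0.597 and 0.574 with IFNγ, 13.6-fold higher. In DENR KO cells it went from 0.0445 and 0.0463 to 0.450 and 0.483, 10.3-fold higher. With IFNγ both DENR KO samples were below both control samples, as was so for 18.4% of 14002 single genes, and untreated the groups overlapped. By reads alone the treated ratios were 1.17 and 1.12 in control and 0.879 and 0.944 in DENR KO cells.

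For β2, Psmb10 to Psmb7 was 0.957 and 0.794 in untreated control cells and 0.962 and 0.959 in untreated DENR KO cells. The untreated groups did not overlap, by a narrow margin. The 1.10-fold difference between them was 1.003-fold without control sample 2 and 1.21-fold without control sample 1, with no test. By reads alone the untreated control ratios were 0.477 and 0.396. With IFNγ the β2 ratio per kilobase was 7.02 and 6.53 in control cells and 6.61 and 5.65 in DENR KO cells, and these groups overlapped. For β5, Psmb8 to Psmb5 was 0.194 in both untreated control samples, beside 0.172 and 0.176 with DENR KO. With IFNγ it was 0.887 and 0.810 in control and 0.774 and 0.716 in DENR KO cells, and by reads alone 2.70 and 2.47 in control and 2.35 and 2.18 in DENR KO cells. The β5 ratio was lower in DENR KO cells under both treatments, with no overlap and no test. Its log2 change was −0.19 (SD 0.12) with IFNγ and −0.15 (SD 0.03) untreated. Neither Psmb8 nor Psmb5 passed the test alone. For scale, DENR KO and control samples did not overlap for 41.9% of 14002 single genes with IFNγ and for 40.2% untreated. Psmb8 has a length of 2736 bases in the tables against 3381 bases of annotated exon, which rescales its ratio in every sample alike.

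For the mRNAs of the PA28 cap, Psme1 to Psme2 was 1.49 and 1.45 in untreated control cells and 0.939 and 0.875 with IFNγ. It was 1.57 and 1.37 in untreated DENR KO cells and 0.966 and 0.987 with IFNγ. The 2 mRNAs were near parity in treated cells of either genotype on this scale, and by reads alone the treated ratios were between 1.10 and 1.24. With IFNγ both control samples had a lower ratio than either DENR KO sample (log2 change 0.11, SD 0.08, no test), beside the 41.9% of single genes above.

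**Figure D4:**
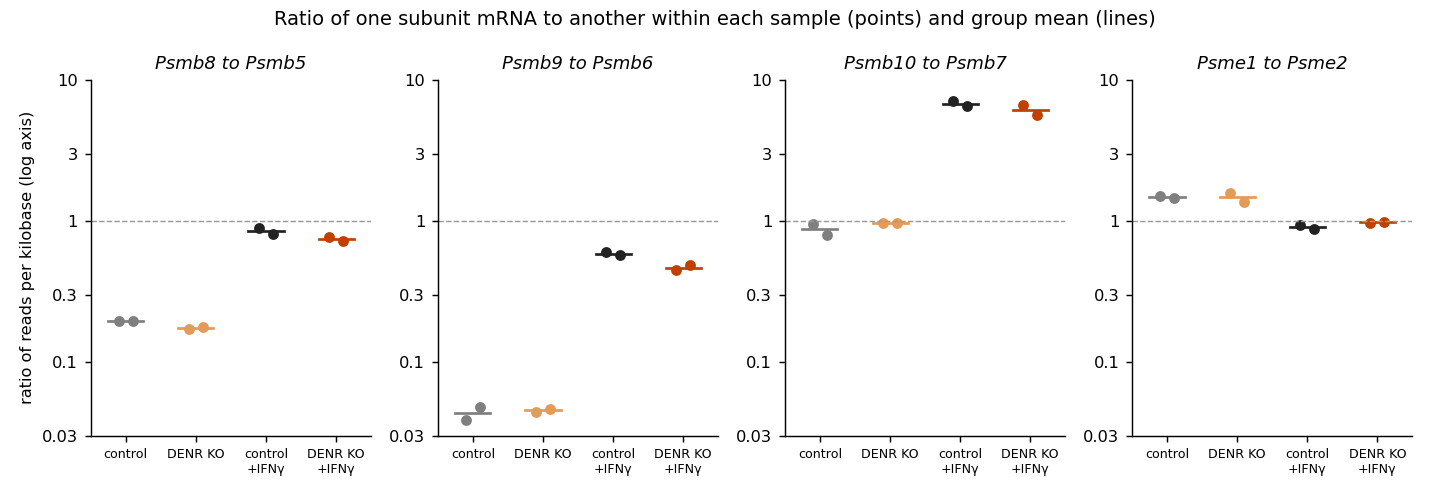
Ratio of induced to replaced subunit mRNA, and of Psme1 to Psme2, in reads per kilobase in each sample (log axis), with a dashed line at 1. On this scale Psmb9 to Psmb6 and Psmb8 to Psmb5 stay under 1 in all samples, Psmb10 to Psmb7 lies near 1 untreated and between 5.65 and 7.02 with IFNγ, and Psme1 to Psme2 lies below 1 with IFNγ.

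Summed over the 6 catalytic subunits per kilobase, the induced ones made up between 18.2% and 18.7% in the 4 untreated samples. They made up 61.4% and 60.7% in control cells and 57.1% and 57.2% in DENR KO cells with IFNγ. By reads alone, with no division by length, the shares were 24.3% to 25.4% untreated, 69.4% and 68.1% in treated control cells and 66.1% and 65.1% in treated DENR KO cells. The order of the IFNγ groups was the same on both scales.

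On the per-kilobase scale (RPKM) the order of the 10 genes in untreated control cells was led by Psmb5 (88.7), Psmb6 (64.5), Psme3 (54.8), Psme1 (32.1) and Psmb7 (23.0), whose samples did not overlap with the next gene. Psme2 (21.8), Psmb10 (20.1) and Pomp (19.7) followed, each overlapping with the next. Psmb8 (17.2) came after them without overlapping Psmb9, which was last (2.77). By RPM, with no division by length, Psme3 (162), Psmb6 (121), Pomp (103) and Psmb5 (79.7) led instead. Per kilobase with IFNγ, Psmb10 led in both genotypes, with 161 RPKM in control and 139 RPKM in DENR KO cells. Psmb5 came next, and its samples overlapped with those of Psmb8 in control but not in DENR KO cells. Psmb9 was in 8th place in both genotypes (37.0 in control and 29.3 in DENR KO cells), above Pomp and Psmb7.

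Among genes with 100 or more reads on average, those whose levels over the 8 samples were most like each induced gene were found by the root mean square (RMS) difference of centred log2 values. For Psmb9 the nearest of 10318 genes was Irf1, an IFNγ-induced transcription factor (RMS 0.0981), followed by Xaf1 (0.13) and Apol10b (0.17). For Psmb10 they were Apol9a (0.105), Apol9b (0.123) and Il15ra, a receptor chain for IL-15 (0.135). For Psmb8 they were Parp10 (0.141), Tvp23a (0.144) and Clec2d (0.154). For Psme1 they were Tor3a (0.0355), Rmdn3 (0.039) and Ier5 (0.0473). For Psme2 they were Ntn1 (0.0507), the adhesion molecule Vcam1 (0.0689) and Rab32 (0.0734). Apol9a and Apol9b are near-identical copies, so reads may have been divided between them.

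The other 20S and 19S subunits moved by less than 2-fold. The 7 α subunits of the 20S barrel had log2 ratios of IFNγ over untreated between 0.03 and 0.51 in control cells (median 0.23) and a median of 0.12 in DENR KO cells. The 4 other β subunits were between 0.06 and 0.17 in control cells. The 6 ATPases of the 19S cap, which unfold substrates, were between −0.10 and 0.06 in control and between −0.23 and 0.05 in DENR KO cells. Its 13 other subunits were between −0.09 and 0.11 in control and between −0.18 and 0.05 in DENR KO cells. None of these 30 genes met the 2-fold rule in either genotype, and their median log2 ratio was 0.05 in control and −0.02 in DENR KO cells.

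In the comparison of DENR KO with control cells under IFNγ, limma called 0 of the 30 subunits, with 5 (16.7%) at an unadjusted p under 0.05, near the 13.4% of all genes. All 30 had a negative log2 fold change, with a median of −0.09, beside 50.1% negative and a median of −0.000356 over all 13928 genes tested. The lowest values by group were Psma1 (−0.20, adjusted p = 0.154), Psmb2 (−0.12, adjusted p = 0.459), Psmc5 (−0.14, adjusted p = 0.354) and Psmd13 (−0.14, adjusted p = 0.362). Without IFNγ 18 of the 30 were negative (median −0.03, 0 called and 0 at an unadjusted p under 0.05), where 49.5% of all genes were. For the difference between treatments 26 of 30 were negative (median −0.07, 0 called and 1 at an unadjusted p under 0.05), where 49.7% of all genes were. These subunits are expressed together and are not independent replicates, and no test was made of the group.

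The assembly chaperones, of which 7 of 8 were in the tables, had a median log2 fold change of 0.01 in DENR KO cells with IFNγ and no call. Psmd10 was the highest of them (0.99, adjusted p = 0.804) but ran from 0.82 to 13.4 RPM with no order by group. Of the 4 genes that control transcription of proteasome genes, none was called. Psmb11, the thymus-specific subunit, had at most 0.11 RPM.

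The 9 genes of peptide transport and loading include the neighbours of Psmb8 and Psmb9. In both genotypes 5 of the 9 met the 2-fold rule with IFNγ, where 3.03% of 14002 genes did in control and 2.41% in DENR KO cells. Tap1 led with log2 ratios of 4.35 in control and 3.92 in DENR KO cells. Tap1, B2m (the light chain of MHC class I) and Tapbp (tapasin, which loads peptide) were called lower in DENR KO cells with IFNγ, at log2 fold changes of −0.51, −0.31 and −0.19 (B2m and Tapbp are named after their values were seen). That is 3 of 9, where limma called 2.25% of 13928 genes lower. The difference between treatments was called for 2 of the 9, Tap1 and Tapbp (−0.35, limma adjusted p = 0.0286 for Tapbp). Over all 13998 genes, 0.429% were called with a lower effect. Tap2 was at 262.7 and 216.1 RPM in control and 211.9 and 187.6 RPM in DENR KO cells with IFNγ (log2 fold change −0.27, adjusted p = 0.254). Canx, an endoplasmic reticulum chaperone, was the least changed at −0.01. Psmb9 thus lay between Tap1 and Tap2 in the size of its fold change.

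The 6 interferon regulators described (Stat2, Irf1, Irf2, Irf8, Irf9 and Nlrc5) were each called lower in DENR KO cells with IFNγ, where 2.25% of 13928 genes were. Their median log2 fold change was −0.42. Irf8 was lowest at −0.75 and Irf9 highest at −0.28. The median over the 5 induced proteasome genes was −0.23. The difference between treatments was called for 3 of the 6, Irf1, Irf8 and Nlrc5, and for none of the 10 proteasome genes. Of 13998 genes, limma called 0.429% with a lower effect under IFNγ. The log2 ratios of the regulators to untreated cells had a median of 2.95 in control and 2.52 in DENR KO cells, beside 2.10 over the 5 induced genes in control cells. Irf8 had the highest of these ratios. Its untreated levels were 0.17 and 0.11 RPM in control and 0.60 and 0.54 RPM in DENR KO cells. That was below the filter of the untreated test, so its difference between treatments rested on few untreated reads.

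**Figure D5:**
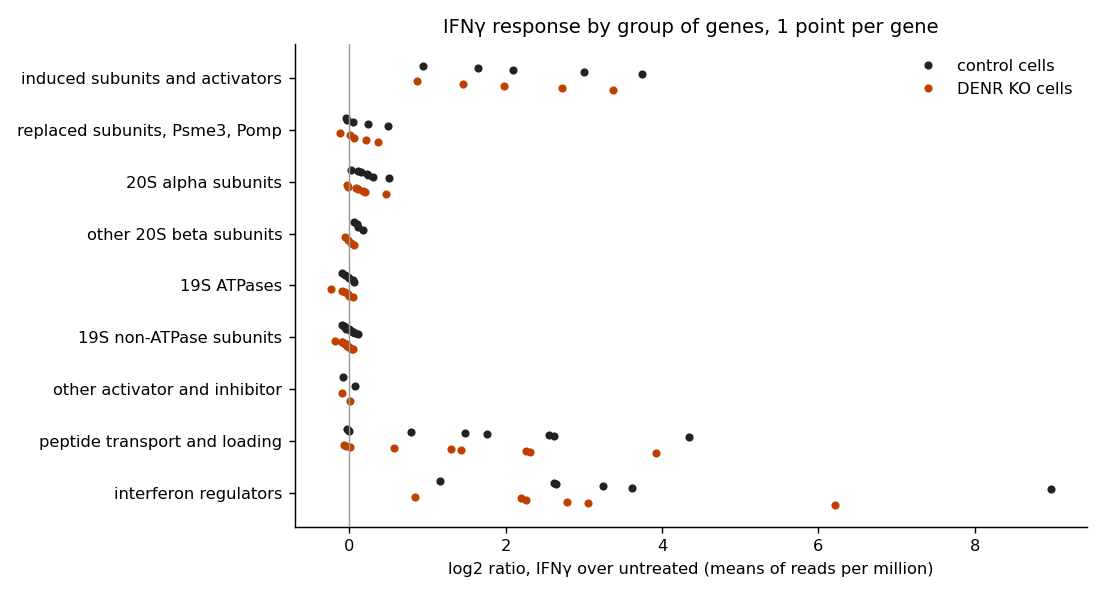
Log2 ratio of IFNγ-treated over untreated cells for each gene of each group, in control and DENR KO cells. The replaced subunits lie near 0, and the other 20S and 19S subunits lie between −0.23 and 0.51. The induced proteasome genes lie between 0.86 and 3.74, and of the interferon regulators Irf8 lies above that range in both genotypes.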

How the data were processed

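RNA-seq of MC38 cells was deposited as 2 tables, 1 per treatment (control and DENR KO, 2 samples each). The deposited values are a normalized signal: the authors divided the read count of each gene by 1 size factor per sample. The submitters' processing notes name HISAT2 2.0.5, StringTie 1.3.3b, featureCounts 1.5.0-p3 and DESeq2 1.20.0, with no role given. They name mm9, but the tables' coordinates are those of GRCm38 (GENCODE M21). The authors' fold change and p-value columns were not used, and 0 sample columns were left unmapped. Handling of strand is not stated in the sources used here. RNA was extracted with Trizol, selected with poly-T beads and read as 150 bp pairs.

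Groups were compared within a table with limma 3.58.1 (R 4.3.3, intensity trend, robust moderation) on log2(value + 1) for genes with a mean of at least 10, with Benjamini-Hochberg adjustment over all genes tested and calls at an adjusted p under 0.05. The scale understates changes of low genes. The difference of the DENR KO effect was an interaction over 8 samples. Sums of reads and ratios between treatments used recovered reads: 100% of values were whole multiples of 1 read (tolerance 0.01). Depth was 17369020 to 18403790 reads. Counting error limits the genes with few reads, such as Irf8 untreated, Psme2b, Psmb11 and the absent markers. Ratios across treatments covered 14002 genes with a mean of at least 10 reads and a read in each sample. edgeR 4.0.16 and DESeq2 1.42.0 on the recovered reads, other pseudocounts, filters, centring, samples left out and a replicate block were alternatives. The fits were also run on simulated data. The changes planted there were larger than any DENR KO effect among the 10 genes, so that run does not bear on calls of this size.

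The 10 genes, the lists and the tests were chosen with earlier results of these data known. 1 gene of the interferon regulator list is not reported here and was left out of its counts and medians. The rule for names took all 10 genes, Tap1, Tap2 and Denr, the genes with the largest and smallest fold change of each list, and the 3 nearest patterns of each induced gene. Of the loading genes and regulators, B2m, Tapbp, Stat2, Irf2 and Nlrc5 were named outside that rule. Promoter sequences are RefSeq's, and Psmb7 has no entry there.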

Additional observations from a re-analysis of the deposited data

Results flagged for a closer look

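Tap1, the neighbour that shares a start region with Psmb9, had an effect of DENR KO that differed between treatments by the interaction test. The DENR KO effect with IFNγ minus the effect untreated was −0.45 on the log2 scale (SE 0.09, adjusted p = 0.0158, limma over 8 samples), from a log2 fold change of −0.51 with IFNγ and −0.06 untreated. Both treated control samples were above both treated DENR KO samples, and the untreated groups overlapped. edgeR gave an adjusted p of 0.0137 and DESeq2 one of 0.00256. With 1 sample left out the call held in 3 of 8 cases, with adjusted p between 0.00803 and 0.196. It was lost without either treated DENR KO sample (0.088 and 0.085), either treated control sample (0.102 and 0.061) or DENR KO untreated sample 2 (0.196).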

How the results depend on the processing

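Of the 10 genes with IFNγ, 3 were called, 1 in a single fit over 8 samples, 6 with a replicate block, and 1 to 4 with 1 sample left out. For the difference between treatments the count was 0, and 0 to 1 with 1 sample left out. The cause was not tested. The 6 were the 5 induced genes and Pomp. Deviations of log2 values from the group means were compared between same-numbered samples, over 10415 genes. Between genotypes they correlated at 0.22 with IFNγ and −0.017 untreated, and between treatments at 0.23 in control and 0.024 in DENR KO cells. The labels do not say that a number marks a shared culture or day, and whether the numbers pair the samples was not settled. The block also moved the calls over all genes from 314 lower and 251 higher to 729 and 726 with IFNγ, from 21 and 60 to 89 and 168 untreated, and from 60 and 3 to 120 and 30 for the difference. DESeq2 called 223 lower and 122 higher with IFNγ and 13 and 37 untreated, and median centring gave 29 lower and 44 higher untreated. With 1 sample left out, calls over all genes ranged from 281 to 307 lower and 146 to 341 higher with IFNγ, from 15 to 41 and 20 to 61 untreated, and from 35 to 81 and 1 to 12 for the difference.

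Signs of small effects turned with 1 sample left out. With IFNγ the log2 fold changes ranged from −0.27 to 0.048 for Psmb8, −0.021 to 0.17 for Psmb5, −0.11 to 0.064 for Psmb6, −0.17 to 0.0063 for Psmb7 and −0.051 to 0.015 for Psme3. Untreated they ranged from −0.11 to 0.17 for Psmb8, −0.0083 to 0.087 for Psmb9, −0.059 to 0.20 for Psmb10, −0.15 to 0.070 for Psmb6, −0.11 to 0.038 for Psme2, −0.017 to 0.083 for Psme3, −0.10 to 0.17 for Pomp, −0.15 to 0.023 for Tap1 and −0.0067 to 0.10 for Tap2. The difference ranged from −0.30 to 0.017 for Psmb8, −0.25 to 0.028 for Psmb5, −0.090 to 0.12 for Psmb6, −0.099 to 0.073 for Psmb7 and −0.096 to 0.063 for Denr, and under median centring it was 0.0015 for Psmb7. With all samples kept, no other sign among the 10 genes turned in the 90 settings of genes with IFNγ, the 90 untreated and the 80 of the difference.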
